A study of Mus musculus with 460 samples.

Results

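The insulin-like growth factor (IGF) system was followed through 10 genes, chosen by name: the ligand genes Igf1 and Igf2, the receptor genes Igf1r and Igf2r, and 6 genes named for binding proteins, Igfbp2 to Igfbp7. They are 10 of the 48440 genes in a table of molecular barcode counts for 460 single cells, and all 10 were counted in at least 10% of the cells. The cells were labelled as CAFs (cancer-associated fibroblasts) from mice of 1 strain with lung adenocarcinoma. The labels add the term tCAFs without spelling it out, and give no animal, age, sex, treatment or culture. The whole set is therefore 1 sample, and no p-value was made from cells.

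IGF1 and IGF2 are secreted growth factors that act through IGF1R, a receptor tyrosine kinase which signals through IRS adaptors and PI3 kinase. IGF2R, the cation-independent mannose 6-phosphate receptor, has no kinase and carries IGF2 to the lysosome. The binding proteins hold the ligands in the extracellular space and can block or prolong their action until proteases cleave them, and IGFBP7 binds the ligands only weakly. Mesenchymal cells are a known source of IGF1 in the lung.

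The cells were divided by whether the count of Rgs5, a pericyte gene, exceeded that of Pdgfra, a fibroblast receptor gene. Rgs5 was above Pdgfra in 44.1% of the cells (exact Clopper-Pearson 95% interval 39.5 to 48.8) and not above it in the other 55.9%, called the rest here. In 70 cells, 31 with Rgs5 above and 39 of the rest, the counts of these genes lay within 2-fold of each other. None of the 10 IGF genes entered the division. Both sets carry the same strain, tumour and cell type labels.

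Leaving out Rgs5, which formed the sets, 6 of 8 pericyte or vascular smooth muscle markers were at least 2-fold higher in the cells with Rgs5 above Pdgfra, and Cspg4, a proteoglycan gene of pericytes, stood at 551 CPM against 67.6 CPM in the rest. CPM is the summed count of a gene scaled to 1000000 summed counts of the same cells. Leaving out Pdgfra, 6 of 8 fibroblast markers were counted in at least 50% of all cells, and 3 (Dcn, Lum and Dpt) were at least 2-fold lower in the cells with Rgs5 above Pdgfra. Col1a1, Col1a2 and Col3a1 were lower by less, at 0.610, 0.547 and 0.537 of their CPM in the rest. Thy1 and Fbln1 went the other way, at 1.15 and 1.16 of their CPM in the rest. Without these 2 genes, pericyte markers summed to a median of 6319 CPM in cells with Rgs5 above Pdgfra and 1185 CPM in the rest, and fibroblast markers to 4737 CPM and 10522 CPM. The cells held 25029 to 240496 counts, with a median of 76944 in the cells with Rgs5 above Pdgfra and 96654 in the rest.

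Immune, endothelial and mesothelial markers were low in most cells, while lung epithelial markers were widely counted. Immune markers summed to a median of 13.8 CPM (0 to 3200) in cells with Rgs5 above Pdgfra and 12.7 CPM (0 to 1226) in the rest, and the 4 of 8 that were counted in at least 10% of cells were all at least 2-fold higher, by summed counts, in the cells with Rgs5 above Pdgfra. Endothelial markers summed to 15.1 CPM (0 to 4028) against 21.2 CPM (0 to 4926), with 1 of 6 tested genes higher and 1 lower. Mesothelial markers had a median of 0 in both sets, with a highest sum of 8320 CPM in a cell with Rgs5 above Pdgfra and of 887 CPM in the rest. Epithelial or lung tumour markers summed to 722 CPM (0 to 20960) against 607 CPM (0 to 23981), with 3 of 8 tested genes higher. Sftpc, the surfactant gene of alveolar type II cells, had a count in 80.9% of all cells, Sftpb in 76.7% and Sftpa1 in 72.6%, and whether low counts of a gene came from the cell itself was not tested. Of 8 tested G2/M cell cycle genes, 6 were at least 2-fold lower in cells with Rgs5 above Pdgfra, with median sums of 30.1 CPM (0 to 4329) and 28.5 CPM (0 to 6092). In 2 runs of neighbouring columns of the table, 27.6% of the cells, Sftpc was mostly under 30 CPM, and these runs held 31.5% of the cells with Rgs5 above Pdgfra and 24.5% of the rest. The labels name no batch, so results are also given within the columns holding and lacking Sftpc. No marker listed here was at 0 counts over all cells, and the part of these markers in the results below was not tested except where a value is given.

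The start regions of 3 members are shown because they take different courses below. Igfbp4 and Igfbp7 had a Spearman correlation of 0.41 over all cells, but 0.28 within the cells with Rgs5 above Pdgfra and 0.12 within the rest. Igf2r was the receptor with the opposite direction between the sets. Each is the 250 bases before the RefSeq start on GRCm38.p6, read 5′ to 3′ on the gene's strand, with capitals at TATAAA or at GGGCGG, or at its reverse complement CCGCCC.
Igfbp4, chr11:99040994-99041243, plus strand: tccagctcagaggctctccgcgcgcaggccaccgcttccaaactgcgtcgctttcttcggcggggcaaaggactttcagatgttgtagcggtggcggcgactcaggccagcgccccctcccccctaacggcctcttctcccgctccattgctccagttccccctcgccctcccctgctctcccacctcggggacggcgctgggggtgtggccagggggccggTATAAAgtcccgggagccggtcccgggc
Igfbp7, chr5:77408046-77408295, minus strand: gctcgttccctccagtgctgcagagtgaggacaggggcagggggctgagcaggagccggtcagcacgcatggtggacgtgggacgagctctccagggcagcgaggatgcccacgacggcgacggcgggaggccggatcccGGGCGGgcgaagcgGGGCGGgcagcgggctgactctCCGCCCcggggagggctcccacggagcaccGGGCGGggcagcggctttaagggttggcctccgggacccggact
Igf2r, chr17:12769707-12769956, minus strand: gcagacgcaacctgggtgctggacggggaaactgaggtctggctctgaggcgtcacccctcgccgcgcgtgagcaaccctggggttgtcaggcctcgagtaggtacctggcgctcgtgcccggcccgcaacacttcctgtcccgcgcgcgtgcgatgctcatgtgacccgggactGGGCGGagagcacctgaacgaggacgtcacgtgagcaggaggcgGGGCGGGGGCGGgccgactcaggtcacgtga
Igfbp4 held TATAAA with its first base 28 bases before the start, and no GGGCGG. Igfbp7 and Igf2r held no TATAAA and 4 and 3 copies of GGGCGG on either strand. Over 32851 RefSeq promoters of this length, 12.4% held TATAAA and 32.7% GGGCGG on either strand. CpG sites numbered 22 in Igfbp4, 26 in Igfbp7 and 27 in Igf2r, against a median of 6. A match describes these letters and does not show a site in use.

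Igfbp7 had the highest summed level of the 10 genes. It lies at chr5:77349240-77408041 on the minus strand and reached 3318 CPM (exact Poisson interval 3301 to 3336), the 9th highest level in the table. Igf1, at chr10:87858265-87937042 on the plus strand, reached 1606 CPM (1594 to 1618). Both had a count in every cell. Igfbp4 (chr11:99041244-99054392, plus strand) followed at 807 CPM in 99.6% of cells and Igfbp5 (chr1:72857932-72874884, minus strand) at 578 CPM in 91.7%.

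The receptor genes were lower but nearly as widely counted. Igf1r, at chr7:67952827-68233668 on the plus strand, stood at 271.97 CPM in 98.04% of cells. Igf2r, at chr17:12682406-12769664 on the minus strand, stood at 136.7 CPM in 91.3%. Igf2 (chr7:142650766-142666816, minus strand) reached 230.5 CPM in 75.2% of cells (71.01 to 79.1), and Igfbp3 (chr11:7206086-7213923, minus strand) 85.7 CPM in 57.2%.

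The 2 sparsest members were Igfbp6 (chr15:102144362-102149511, plus strand), at 28.3 CPM in 20% of cells (16.4 to 23.95), and Igfbp2 (chr1:72824503-72852474, plus strand), at 15.98 CPM in 10.7% (7.99 to 13.8). Coordinates are those of GENCODE vM21 on GRCm38, the assembly also called mm10. All intervals cover counting error only.

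Per kilobase of exon, Igfbp7 stood further ahead, at 2745 CPM per kb. Igfbp4 and Igf1 followed at 182.8 and 162.1 CPM per kb, then Igfbp5 at 96.2 and Igf2 at 40.3 CPM per kb. Igfbp3 at 27.4 CPM per kb (26.5 to 28.3) and Igfbp6 at 25.5 (24.1 to 26.95) had overlapping intervals and cannot be ordered. Igf1r at 16.2, Igf2r at 14.7 and Igfbp2 at 8.65 CPM per kb came last. Whether the libraries cover whole transcripts is not given in the sources used here, so both scales are stated.

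The members differed widely in how evenly the cells shared their counts. The 46 cells (10%) with the most counts of a gene held 19.5% of all Igfbp7 counts, 26.7% of Igf1r, 33.6% of Igfbp4, 35.9% of Igf2r and 37.7% of Igf1. They held 71.9% of the counts of Igfbp5, 74.7% of Igfbp3 and 77.3% of Igf2. For Igfbp6 and Igfbp2 the shares were 95.5% and 99.6%. Igfbp7, Igf1, Igfbp4 and the receptor genes were thus spread over the population, and Igf2, Igfbp2, Igfbp3, Igfbp5 and Igfbp6 were carried by few cells. With every cell thinned to 56586 counts and the 10% of shallower cells left out, the coefficient of variation ran from 0.470 for Igfbp7 and 0.742 for Igf1r to 5.39 for Igfbp6 and 6.21 for Igfbp2.

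**Figure D1:**
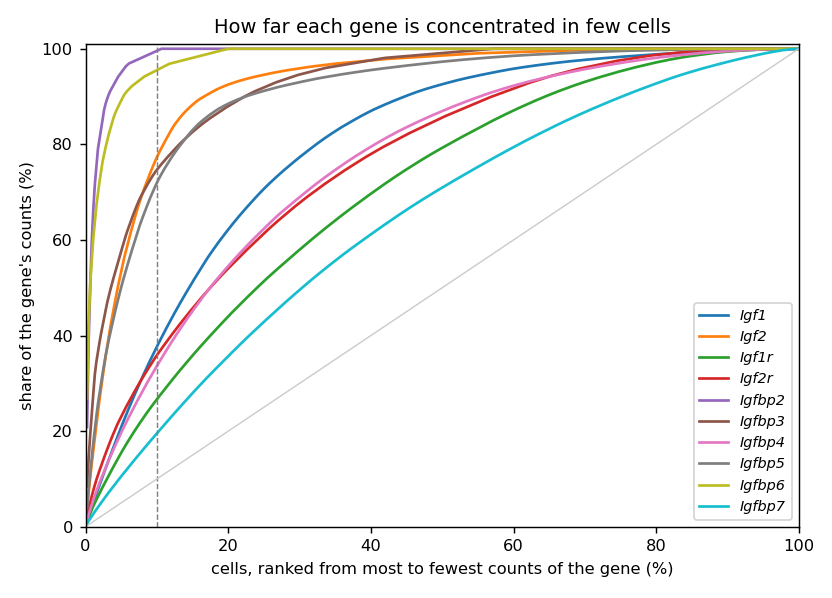
The share of each gene's counts (percent, vertical axis) held by the cells ranked from most to fewest counts of that gene (percent of the 460 cells, horizontal axis), with a dashed line at 10% of cells and a grey diagonal for an even spread. At the dashed line Igfbp7 has reached 19.5%, and Igfbp2 and Igfbp6 have reached 99.6% and 95.5%.

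Between the sets of cells, 5 of the 10 members were at least 2-fold lower where Rgs5 was above Pdgfra: Igf1, Igf2, Igfbp2, Igfbp4 and Igfbp5. Over the 13975 genes counted in at least 10% of cells, 5.26% were lower by that much, and 2.98% of those counted in at least 50% of cells. Igfbp6 was the 1 member at least 2-fold higher, against 3.98% of those genes, and that call rested on a single cell (below). The median log2 ratio was -0.89 over the members and 0.02 over all genes tested. These calls compare 2 sets of cells of 1 sample and have no replicate check.

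Igf1 was the ligand gene with the higher summed level, and it was lower where Rgs5 was high. In cells with Rgs5 above Pdgfra it ranged from 51.4 to 8994 CPM with a median of 233.7, and in the rest from 21.9 to 8373 CPM with a median of 1845. The sets overlapped over most of their range, but only 8.37% of the cells with Rgs5 above Pdgfra exceeded the median of the rest. Summed levels were 567 CPM (556 to 578) and 2292 CPM (2274 to 2311), a ratio of 0.247 (exact conditional interval 0.242 to 0.253).

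Igf2, an imprinted fetal growth factor gene that is active on the paternal copy, was low in most cells and high in a few. Its levels were 0 to 4559 CPM with a median of 13.3 in cells with Rgs5 above Pdgfra, and 0 to 4035 CPM with a median of 35.3 in the rest. The highest single cell was thus in the set with the lower level, and the ranges overlapped throughout. Summed levels were 59.6 CPM and 343.4 CPM, a ratio of 0.174 (0.163 to 0.185), the lowest of the 10 members over all cells. That rank was not kept under every alternative. When cells whose Rgs5 and Pdgfra counts lay within 2-fold of each other were left out, Igf2 was at 0.065 and Igfbp2 at 0.026. Of the 46 cells with the highest CPM of Igf2, 2 had Rgs5 above Pdgfra.

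Igf2 exceeded Igf1 in only 3 cells, 2 with Rgs5 above Pdgfra and 1 of the rest. Igf1 supplied 90.5% of the ligand counts in cells with Rgs5 above Pdgfra and 86.97% in the rest. A ligand and Igf1r were both counted in 95.6% of cells with Rgs5 above Pdgfra and in 100% of the rest. Igf1 had a count in every cell, so the remaining cells are those without an Igf1r count. Shared detection does not show that the receptor is engaged.

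The receptor genes took opposite directions, and neither passed 2-fold. Igf1r ranged from 0 to 1342 CPM with a median of 177.6 in cells with Rgs5 above Pdgfra, and from 22.2 to 1078 CPM with a median of 285.1 in the rest. Its summed levels were 209.7 CPM and 313.2 CPM, a ratio of 0.669 (0.643 to 0.697). Igf2r, whose start region is printed above, ranged from 0 to 1033 CPM with a median of 127.1 in cells with Rgs5 above Pdgfra, and from 0 to 782 CPM with a median of 83.03 in the rest. Its summed levels were 182.6 CPM and 106.3 CPM, a ratio of 1.72 (1.63 to 1.81). Igf2r was higher in cells with Rgs5 above Pdgfra under all 10 alternatives for the ratio, and Igf1r lower. Igf2r had a count in 91.6% of cells with Rgs5 above Pdgfra (86.9 to 95.05) and in 91.1% of the rest (86.9 to 94.2), shares that differed by less than their intervals, so the sets differed in the level of Igf2r and not detectably in how many cells held a count.

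Igfbp4, a binding protein cleaved by the protease PAPP-A, was the most abundant binding protein after Igfbp7. It ranged from 0 to 2825 CPM with a median of 199.7 in cells with Rgs5 above Pdgfra, and from 25.3 to 5821 CPM with a median of 894 in the rest. As for Igf1, 8.37% of the cells with Rgs5 above Pdgfra exceeded the median of the rest. Summed levels were 381.2 CPM and 1089 CPM, a ratio of 0.350 (0.341 to 0.360).

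Igfbp7 differed least among the abundant members. It ranged from 197.6 to 10245 CPM with a median of 2471 in cells with Rgs5 above Pdgfra, and from 1030 to 9237 CPM with a median of 3706 in the rest. The ratio of summed levels was 0.738 (0.729 to 0.746), from 2733 and 3705 CPM. Igfbp7 supplied 76.7% of all binding protein counts in cells with Rgs5 above Pdgfra and 65.3% in the rest. It was the binding protein with the most counts in 97.04% of cells with Rgs5 above Pdgfra (93.7 to 98.9) and in 94.2% of the rest (90.6 to 96.7). In the other cells the leader was Igfbp5 (15 cells) or Igfbp4 (6 cells).

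Igfbp5 showed a low level in most cells and a tail of very high ones. It ranged from 0 to 11841 CPM with a median of 50.3 in cells with Rgs5 above Pdgfra, and from 0 to 10327 CPM with a median of 129.4 in the rest. Summed levels were 325.3 CPM and 745 CPM, a ratio of 0.437 (0.424 to 0.450). Of the 46 cells with the highest CPM of Igfbp5, 7 had Rgs5 above Pdgfra. The cell with the single highest count, 969, was among those 7 and is the mesothelial marker cell described next, and without it the ratio was 0.363.

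Igfbp6 was counted in 19.2% of cells with Rgs5 above Pdgfra and 20.6% of the rest, while its summed levels were 41.9 CPM (38.8 to 45.1) and 19.4 CPM (17.7 to 21.2), a ratio of 2.16. A single cell, at 1953 CPM, held 26.8% of all its counts and 45.6% of those in the cells with Rgs5 above Pdgfra. That cell had only 35 Rgs5 and 20 Pdgfra counts, its mesothelial markers summed to 8320 CPM, and its endothelial markers to 1754 CPM. Without it the ratio was 1.19. The second cell, with 15.2% of the Igfbp6 counts, held 240496 counts of all genes, the most of any cell, and its Rgs5 and Pdgfra counts also lay within 2-fold of each other. The ratio was 0.544 when cells within 2-fold of the line were left out, 0.658 without the 5% of cells with the most counts, and 0.295 without cells counting at least 2 immune or 2 endothelial genes. No direction can therefore be given for Igfbp6.

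Igfbp2 and Igfbp3 also rested on few cells. Igfbp2 was counted in 7.39% of cells with Rgs5 above Pdgfra (4.19 to 11.9) and 13.2% of the rest (9.34 to 17.99), intervals that overlap. Its summed levels were 5.60 CPM (4.53 to 6.85) and 22.8 CPM (21.03 to 24.8). A single cell of the rest held 20.9% of its 681 counts, and the ratio was 0.245 (0.195 to 0.305) with it and 0.322 without it. Without cells within 2-fold of the line the ratio was 0.026, and on thinned counts with the split redone 0.035. Igfbp2 stood at 0.491 and 0.973 CPM in the 2 bins of highest Rgs5 share described below. The ratio was 0.5 or less under all 10 alternatives. Its size depended on cells near the line, which the counting interval does not cover. Igfbp3, which in serum carries the IGFs in a ternary complex, was counted in 56.7% and 57.6% of cells, at 76.7 CPM and 91.6 CPM, a ratio of 0.837 (0.782 to 0.896). A cell with 21 Rgs5 and 20 Pdgfra counts, at 3151 CPM of Igfbp3, held 23.7% of its counts in the cells with Rgs5 above Pdgfra, and the ratio was 0.643 without it.

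**Figure D2:**
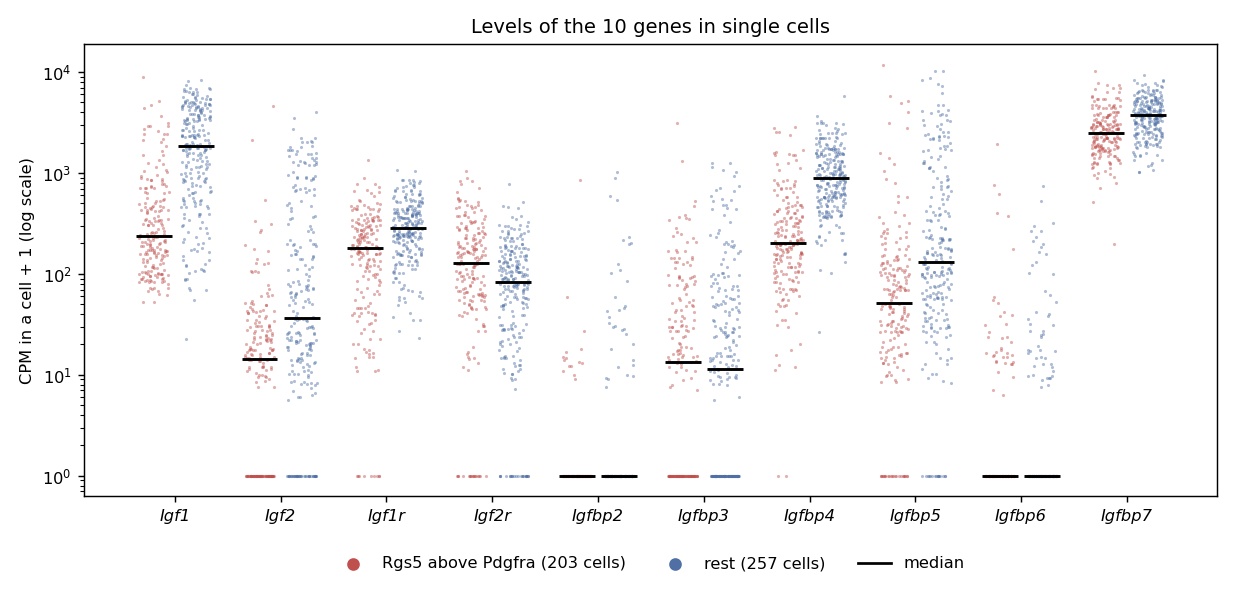
CPM + 1 of each of the 10 genes in each cell, on a log scale, with the cells with Rgs5 above Pdgfra (red) left of the rest (blue), and black bars at the medians. The red cells sit lower for Igf1 (median 233.7 against 1845 CPM) and Igfbp4 (199.7 against 894 CPM) and higher for Igf2r (127.1 against 83.03 CPM), and points at 1 are cells with no count.

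Cells with Rgs5 above Pdgfra made up 41.7% of the columns holding Sftpc and 50.4% of the columns lacking it. The ratio of Igf1 was 0.205 in the holding and 0.356 in the lacking columns, that of Igf2 0.160 and 0.200, and that of Igfbp4 0.361 and 0.350. Igf1r was at 0.668 and 0.662, Igf2r at 1.84 and 1.42, and Igfbp7 at 0.720 and 0.755. All 6 genes thus kept their direction in both. Igfbp5 was at 0.504 and 0.268, just short of 2-fold in the holding columns, and Igfbp2 at 0.306 and 0.028 (0.0034 to 0.105). Igfbp3 took opposite directions, at 0.522 in the holding columns (46.2 against 88.6 CPM) and 1.49 in the lacking columns (153.8 against 103.1 CPM), where the cell at 3151 CPM lies. Igfbp6 was at 2.30 and 2.32, from 34.1 CPM over all cells of the holding columns and 9.88 CPM, in 6.30% of cells, in the lacking ones, and the cell at 1953 CPM lies in the holding columns.

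**Figure D3:**
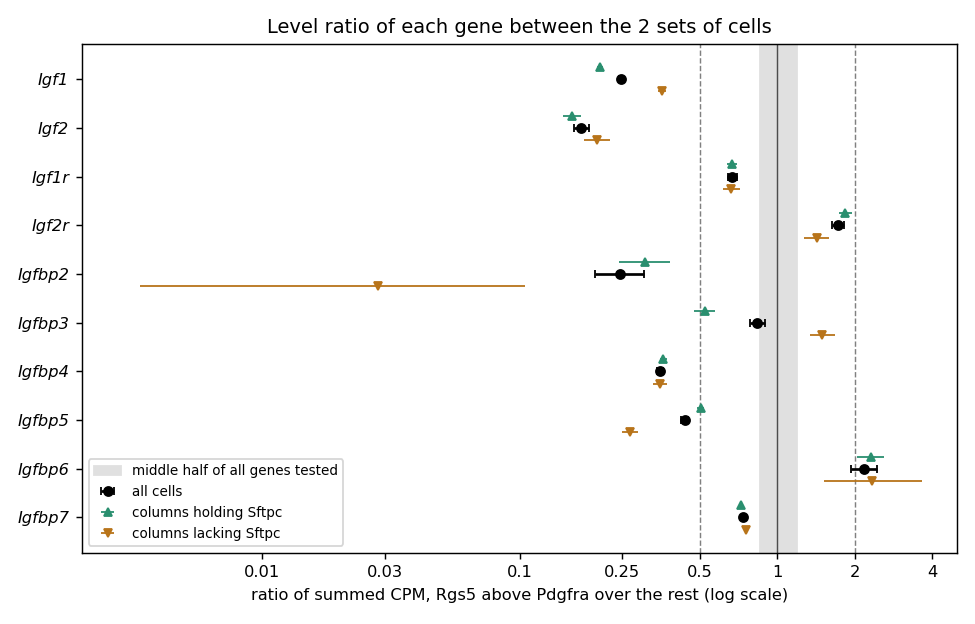
Ratio of summed CPM in cells with Rgs5 above Pdgfra over the rest for each gene (log scale) in all cells (black), in columns holding Sftpc (green) and in columns lacking it (brown), with exact 95% intervals for counting error, dashed lines at 2-fold and grey for the middle 50% of the 13975 genes tested. Igf1, Igf2 and Igfbp4 lie under 0.5 in all cells and in both sets of columns, and Igfbp3 changes side between the columns with the cell at 3151 CPM included.

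The cells were also ordered by the share of Rgs5 in the sum of Rgs5 and Pdgfra counts and cut into 5 bins of 92 cells, with shares of 0.338 to 11.3%, 11.4 to 23.2%, 23.2 to 60.8%, 60.8 to 94.5% and 94.5 to 99.8% from low to high. Igf1 stood at 2568, 2578, 1537, 578 and 330 CPM in these bins, level over the first 2 and lower from the third on. Igfbp4 stayed within 1012 to 1183 CPM over the first 3 bins and stood at 390.3 and 196.6 CPM in the last 2. Igf1r, at 330.7, 304.9, 295.2, 245.8 and 153.5 CPM, was lowest in the last bin.

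Igf2r was lowest in the second bin and highest in the last, at 127.9, 87.8, 110.5, 156.6 and 218.4 CPM. Igfbp7 was highest in the second bin at 3963 CPM and lowest in the last at 2403 CPM. Igf2 stood at 459.5, 290.8, 272.4, 22.5 and 31.8 CPM, with medians of 76.4, 34.5, 25.7, 10.9 and 13.1 CPM. Igfbp5 stood at 866, 746, 649, 412.5 and 82.4 CPM, and its bin medians were 153.5, 235.3, 92.7, 67.5 and 40.7 CPM. Igfbp6 was highest in the third and the fourth bin, at 49.6 and 53.9 CPM, and at 3.61 CPM in the last, so its level was not a feature of the cells with the largest Rgs5 share. Its median was 0 CPM in every bin. The cell at 1953 CPM of Igfbp6 lies in the fourth bin and the cell with its second highest count in the third, so these sums rest on few cells.

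**Figure D4:**
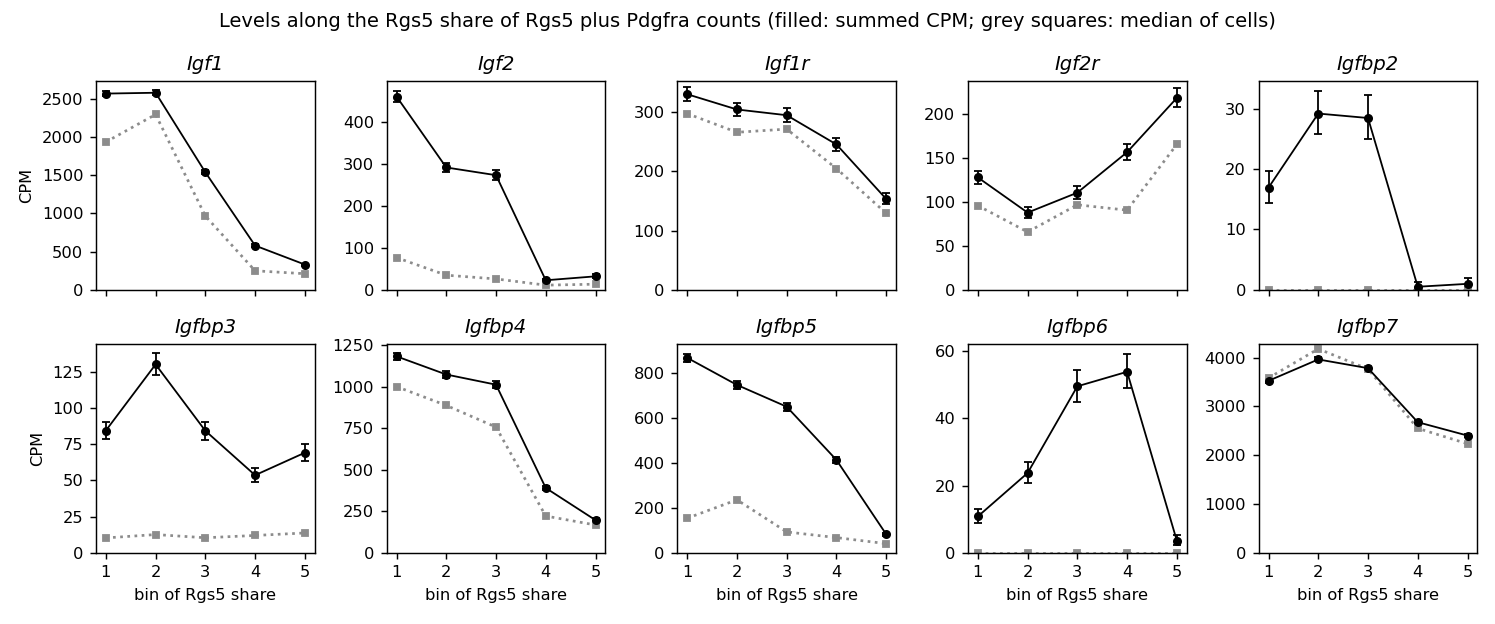
Level of each gene (CPM, vertical axis, 1 panel per gene) in 5 bins of 92 cells ordered by the Rgs5 share of Rgs5 plus Pdgfra counts from low to high, as summed CPM (black, with exact Poisson 95% intervals) and as the median of the cells (grey squares). Igf1 stands at 2568 CPM in the first bin and 330 CPM in the last, while Igf2r stands at 127.9 and 218.4 CPM.

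Across all cells, 6 of the 45 pairs of members had a Spearman correlation of 0.3 or more, and 0.0749% of all gene pairs did (0.239% where both genes were counted in at least 50% of cells). They were Igf1 with Igfbp7 (0.60), with Igf2 (0.54), with Igfbp4 (0.51) and with Igf1r (0.31), Igf2 with Igfbp7 (0.42), and Igfbp4 with Igfbp7 (0.41). Igf1 was thus in 4 of the 6 pairs. No pair reached -0.3, as in 0.0241% of all gene pairs, and the lowest was Igf2r with Igfbp7 (-0.24). These correlations describe 460 cells of 1 table, include the difference between the sets, and carry no p-value.

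Within the sets fewer pairs of members passed 0.3. The share of all gene pairs at 0.3 or more within a set is not given here, so these counts have no background. In the cells with Rgs5 above Pdgfra the pair Igf1 and Igfbp7 alone passed 0.3, at 0.36. In the rest Igf1 correlated with Igf2 at 0.63 and with Igfbp7 at 0.57, and Igf2 with Igfbp7 at 0.44. Igf1 and Igfbp4 correlated at 0.23 in the cells with Rgs5 above Pdgfra and at 0.18 in the rest, although at 0.51 over both together. Igf1 and Igf1r, at 0.31 over all cells, correlated at 0.09 in the cells with Rgs5 above Pdgfra and at 0.16 in the rest.

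**Figure D5:**
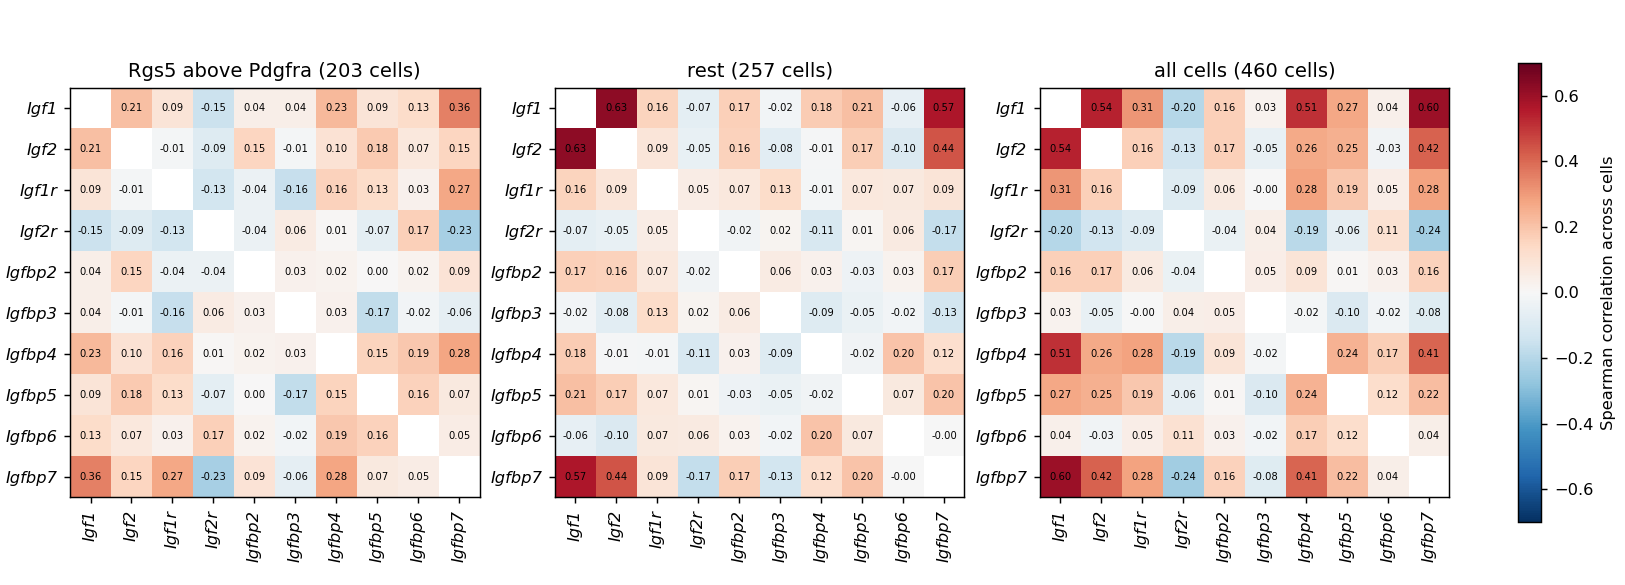
Spearman correlation of each pair of the 10 genes across the cells with Rgs5 above Pdgfra, the rest and all 460 cells, on log counts per 10000, coloured from blue (negative) to red (positive). Igf1 with Igfbp7 is red in all 3 panels (0.36, 0.57 and 0.60), and Igf1 with Igfbp4 is pale in the first 2 (0.23 and 0.18) and red over all cells (0.51).

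The 3 genes most like Igf1 across cells were Dcn, Col1a2 and Col1a1. Dcn, which encodes the matrix proteoglycan decorin, led at 0.70 over all cells, 0.43 within the cells with Rgs5 above Pdgfra and 0.68 within the rest. The type I collagen genes Col1a2 (0.68) and Col1a1 (0.67), the collagen prolyl hydroxylase gene P4ha3 (0.65) and the flavin monooxygenase gene Fmo2 (0.64) followed. Of all genes tested, 2.05% correlated with Igf1 at 0.3 or more and 1.27% at -0.3 or less. Lowest were Notch3 (-0.59), a receptor gene of mural cells, Pdzd2 (-0.57) and Arhgef17 (-0.56).

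Igfbp7 was closest to Bgn, which encodes biglycan, at 0.72 over all cells and at 0.59 and 0.69 within the cells with Rgs5 above Pdgfra and the rest. Mgp (0.63; matrix Gla protein), Igf1, the crosslinking enzyme gene Loxl1 (0.59) and Col1a2 (0.59) came next. Its lowest values were with Gucy1a3 (-0.47), a subunit gene of soluble guanylate cyclase, Pdzd2 (-0.45) and Aff2 (-0.44). The link with Bgn was thus present within both sets, and 1.40% of genes reached 0.3 or more with Igfbp7 and 0.78% reached -0.3 or less.

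Igfbp4 was closest to Fmo2 (0.61), the apolipoprotein gene Apoe (0.61), Pdgfra (0.60), the microfibril gene Mfap5 (0.60) and Col1a2 (0.59). It ran most strongly against Pdzd2 (-0.67), Mcam (-0.66), an adhesion gene of mural cells, and Notch3 (-0.62). With Pdgfra, which formed the sets, its correlation was 0.35 within the cells with Rgs5 above Pdgfra and 0.20 within the rest. With Igfbp4, 1.96% of genes reached 0.3 or more and 1.6% reached -0.3 or less.

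Igf2 was closest to Igf1, then to Dcn (0.50), Tnfsf18 (0.46; a TNF family ligand), Bmp3 (0.43) and Colec12 (0.42; a scavenger receptor), and lowest with Tns1 (-0.36), Notch3 (-0.35) and Rgs5 (-0.35). With Rgs5, which formed the sets, the correlation of Igf2 was -0.099 within the cells with Rgs5 above Pdgfra and -0.13 within the rest. With Igf2, 0.53% of genes reached 0.3 or more and 0.136% reached -0.3 or less.

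Igf1r was closest to Thbs1 (0.41; thrombospondin 1), the chemokine gene Cxcl14 (0.40), Islr (0.37), the heparan sulfatase gene Sulf1 (0.36) and Dpysl3 (0.35). It ran most against the guanylate cyclase genes Gucy1a3 (-0.50) and Gucy1b3 (-0.42), with Pdzd2 (-0.46) between them. The value with Gucy1a3 was -0.43 within the cells with Rgs5 above Pdgfra and -0.36 within the rest, so this relation was present within both sets. With Igf1r, 0.222% of genes reached 0.3 or more and 0.587% reached -0.3 or less. Igfbp5 was closest to Dcn (0.40), the proteoglycan gene Vcan (0.39), Dnm1 (0.36), Pltp (0.35) and Serpinf1 (0.34), and lowest with Rgs5 (-0.38), Pcdh1 (-0.36) and Ebf1 (-0.36). With Rgs5, which formed the sets, the correlation of Igfbp5 was -0.20 within the cells with Rgs5 above Pdgfra and -0.21 within the rest. With Igfbp5, 0.165% of genes reached 0.3 or more and 0.1% reached -0.3 or less.

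Igfbp6 had its own neighbours, all of them sparse genes: Abi3bp (0.35), the fibulin gene Efemp1 (0.35), Il11ra1 (0.33), Pi16 (0.32; a marker gene of adventitial fibroblasts) and the complement gene C2 (0.32). With Igfbp6, 0.0572% of genes reached 0.3 or more. Abi3bp had 34.03 CPM and the other 4 had 5.80 to 12.6 CPM, and counts this sparse limit what a rank correlation shows. Igfbp6 also followed the summed mesothelial markers at 0.34. The 46 cells with the highest CPM of Igfbp6 had a median mesothelial sum of 45.8 CPM, where the median of all cells was 0. Igfbp4 followed that sum at 0.36. Of its 5 markers, 1 was counted in at least 10% of cells, Upk1b (26.3%). Upk1b (ratio 0.698) and Wt1 (0.682) were lower in cells with Rgs5 above Pdgfra, and Msln (21.97), Upk3b (17.99) and Lrrn4 (30.6) higher. For Igf2r, Igfbp2 and Igfbp3 no gene reached 0.3 in either direction.

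The rest of the pathway was described through 63 genes in lists by role. All 63 were in the table, 50 were counted in at least 10% of cells and 39 in at least 50%. Of the 50, 2 were at least 2-fold higher and 7 at least 2-fold lower in the cells with Rgs5 above Pdgfra, with 3.98% and 5.26% over all genes tested, and their median log2 ratio was 0.06. The liver binding protein gene Igfbp1 and Igfbpl1 had no count, which allows up to 0.0704 CPM or 0.652% of cells, and Igfals, the gene of the acid-labile subunit of the serum complex, had 10 counts in all.

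Of these lists, the proteases of binding proteins and their inhibitors held most of the calls. Of 10 tested genes, 5 were lower: Pappa, which encodes PAPP-A (16.7 against 68.3 CPM, ratio 0.245), Htra1 (307.7 against 862 CPM, 0.357), Htra3 (43.7 against 100.9 CPM, 0.433), Mmp2 (201.6 against 513 CPM, 0.393) and Stc2 (8.43 against 22.5 CPM, 0.376). Stc1 was higher, at 171.1 against 84.9 CPM, a ratio of 2.02 (1.91 to 2.13). Stanniocalcins 1 and 2, the products of Stc1 and Stc2, both inhibit PAPP-A, so the inhibitor genes took opposite directions. Igfbp4 and the gene of its protease, Pappa, were thus both lower where Rgs5 was above Pdgfra. Htra1 and Mmp2 had the highest levels of the list, 641 and 388.8 CPM.

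The adaptor Irs2, which couples the receptor to PI3 kinase, was at 158.8 CPM in cells with Rgs5 above Pdgfra and 507 CPM in the rest, a ratio of 0.313 (0.3004 to 0.327). It was the 1 call among 6 adaptors tested, and Shc1, next to it in level at 345.8 CPM, was at 0.854. Irs1 was at 0.593. None of the 17 tested genes from PI3 kinase to FoxO passed 2-fold. Pik3r1, the gene of a regulatory subunit of PI3 kinase, stood at 316.4 CPM with a ratio of 1.30 (1.26 to 1.34).

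The insulin receptor gene Insr was at 161.4 CPM in cells with Rgs5 above Pdgfra and 131.2 CPM in the rest, a ratio of 1.23 (1.17 to 1.29), and its relative Insrr had 3 counts. Insr thus took the opposite direction to Igf1r. The growth hormone receptor gene Ghr (298.4 CPM, ratio 0.639) and Socs2 (235.3 CPM, 0.803) led the list of growth hormone and STAT5 genes, where none of 4 tested genes passed 2-fold. M6pr (209.5 CPM, ratio 1.06), the gene of the cation-dependent mannose 6-phosphate receptor, and Gnptab (104.6 CPM, 1.08) led the partners of Igf2r, with none of 4 past 2-fold.

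At the Igf2 locus, H19, its imprinted neighbour 72622 bases away, had 110 counts in 2.61% of cells and correlated with Igf2 at -0.04. Plagl1, an imprinted zinc finger gene, was the highest of that list at 156.5 CPM and was lower in cells with Rgs5 above Pdgfra, at 62.7 against 218.4 CPM (ratio 0.287). Cdkn1c, an imprinted cell cycle inhibitor gene, came next at 22.7 CPM and was higher, at 37.9 against 12.6 CPM (3.01). Imprinted genes in this list therefore did not share a direction. The matricellular genes Cyr61 (1330 CPM, ratio 0.662) and Ctgf (101.3 CPM, 0.616) led the last list, with none of 4 tested past 2-fold.

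Some members share ground with other genes. Igfbp2 and Igfbp5 lie 5457 bases apart on chromosome 1, and their correlation over all cells was 0.01. Polr2b overlaps Igfbp7 in exons on the opposite strand and had 2399 counts, against 141396 for Igfbp7. Igf2os overlaps Igf2 in exons on the opposite strand and had 79 counts, against 9822 for Igf2, and Airn, which is read against Igf2r without sharing exons, had 938. Whether counting used the strand is not given in the sources used here, so reads of these pairs may not be told apart.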

How the data were processed

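The authors deposited 1 table of molecular barcode counts, whole numbers per gene and cell, for 460 cells; the tools STAR and HTSeq and the build mm10 are named, per the submitters' processing notes, with no version. The step from reads to barcode counts is not given in the sources used here. Levels were computed as summed CPM with exact Poisson 95% intervals, shares of cells with exact Clopper-Pearson intervals, and ratios with exact conditional intervals, called at 2 or more or 0.5 or less. Correlations are Spearman's, on log1p of counts per 10000. Genes counted in at least 10% of cells (13975) form the background. Where a symbol was repeated (119 cases), only the row with most counts was used under it, and 48058 gene identifiers matched GENCODE vM21. No 2 cells had identical columns. All cells were kept, doublets included, and no doublet caller was run. Thinning to 56586 counts left out 46 shallower cells, 32 with Rgs5 above Pdgfra and 14 of the rest. Columns were called lacking Sftpc where over 50% of the 20 nearest had under 30 CPM of it.

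The members, lists, settings and column runs were chosen with earlier results of these data known. The named genes are all members, the 5 genes with the highest and the 3 with the lowest correlation with each where at least 0.3 in size, and the 2 highest members of each pathway list; genes past 2-fold in those lists are also named, and a few others were named after their values were seen. A gene that these rules select, and a detail of the strain, are not reported here. The Rgs5 share bins and the ratio without the cell with a gene's highest count were added after seeing the data. Tools were scran 1.30.0 in R 4.3.3, and scipy 1.17.1, numpy 2.4.6, pandas 2.3.3 and matplotlib 3.10.9 in Python 3.11.15, and the ratio and correlation steps were tested on simulated data.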

Additional observations from a re-analysis of the deposited data

How the results depend on the processing

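No paired analysis was possible because all cells are 1 group of 1 sample. The count of members at least 2-fold higher, 1 over all cells (Igfbp6), was 0 without the 5% of cells with the most counts, without cells counting at least 2 immune or 2 endothelial genes, on thinned counts, as a mean of the CPM of each cell, with scran size factors, with a 2-fold margin in the split and, added later, without the cell with the gene's highest count, and it was 2 at a ratio of 1.5. The ratio of Igfbp6 turned to 0.658, 0.295, 0.785 and 0.544 without the 5% of cells with the most counts, without cells counting immune or endothelial genes, on thinned counts with the split redone and with the 2-fold margin. The count lower, 5 over all cells, was 4 to 6 under every alternative, with Igf1, Igf2, Igfbp2 and Igfbp4 in each. Ratios of Igfbp3 ran from 0.522 to 1.49. Pairs at 0.3 or more numbered 1 in the cells with Rgs5 above Pdgfra alone and 3 in the rest alone, against 6 over all cells and 5 to 8 otherwise. The share of cells with Rgs5 above Pdgfra was 50.4% in columns lacking Sftpc. With no filter beyond 1 count in each set, 12.54% of genes were at least 2-fold higher and 10.6% lower. Levels near a few counts per cell, as of Igfbp2 and Igfbp6, are limited by depth. No cell in this table replicates an animal, so no interval here covers the spread between animals. The cause of these shifts was not tested.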

Other observations

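For the genes carried by few cells, lists of the 46 highest cells shared between 4.35% and 26.1% of their cells. Each list holds 10% of all cells, which is the share that lists drawn evenly from all cells would have in common on average. The lists were not drawn evenly from the 2 sets. Cells with Rgs5 above Pdgfra made up 4.35% (Igf2) to 34.8% (Igfbp3 and Igfbp6) of a list, and 44.1% of all cells. Lists that lean to the same set would share more than 10% on average, and no value allowing for this is given here. Of the 46 cells with the highest CPM of Igf2, 12 were also among the 46 with the highest CPM of Igfbp5 (26.1% of each list). With the Igfbp2 list 10 cells were shared (21.7%), and with the Igfbp6 list 2 (4.35%). The median total was 96498 counts in the 46 cells with the highest CPM of Igf2 and 88701 over all cells. A single cell of the set without Rgs5 above Pdgfra held the highest count of both Igf2 (2214 CPM) and Igfbp2 (883 CPM) and the second highest of Igfbp7 (5199 CPM), at a total of 160786 counts. Another cell of that set held the highest Igf1r count (1078 CPM) and the second highest Igf2r count (782 CPM), and its mesothelial markers summed to 887 CPM.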
